A study of Homo sapiens with 6 samples.

Results

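The genes of the unfolded protein and amino acid stress response were followed in heat-treated residual hepatoma cells cultured with or without periostin (POSTN). They were chosen by name, as 40 genes with known roles in this response, and not by their values here. Earlier results of these data were known when the choice was made. Of these 40 genes, 39 had at least 1 probe set annotated to a single gene symbol, out of 19775 such genes on the array, and the brightest of these probe sets stood for the gene. SYVN1, the ubiquitin ligase of ER-associated degradation, was not analysed here, because its probe set also lists a microRNA. The other 39 genes were read by 90 probe sets, of which 80 had a mean log2 signal above the background level defined in the account of the arrays.

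All 6 samples were MHCC97H cells, an established human hepatocellular carcinoma line, that had survived heat treatment at 47 °C. The control cells received 0 ng/mL POSTN (3 samples), and the treated cells received 100 ng/mL recombinant POSTN, a secreted matrix protein that binds integrins (3 samples). The labels give 24 h of treatment and the replicate numbers 1, 2 and 3 in both conditions. No label states that replicates were cultured apart, and the p-values therefore measure only the spread between these arrays, which may be technical. Samples of cells that had not been heated were not analysed here, so the values do not show what heat did to these genes.

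The unfolded protein response begins at the endoplasmic reticulum (ER) membrane, where the sensors IRE1 (encoded by ERN1), PERK (EIF2AK3) and ATF6 respond to unfolded proteins. IRE1 splices the mRNA of XBP1 and ATF6 is cleaved, and the resulting transcription factors induce chaperones, protein disulfide isomerases and genes of ER-associated degradation. PERK, like the amino acid sensor GCN2, phosphorylates the translation factor eIF2, which favours translation of ATF4, a transcription factor that induces DDIT3 (CHOP), TRIB3 and enzymes that make asparagine and serine. Splicing, cleavage and phosphorylation are not read by these arrays, which measure the amount of RNA.

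Each sample was hybridized to 1 Affymetrix HG-U133 Plus 2.0 array, and the deposited values were log2 signals with a median of 5.80 to 5.95 on each array. The background level was a log2 signal of 5.98, the 95th percentile of 107 probe sets of olfactory receptor genes, and each array had 47.7% to 49.7% of its probe sets above it. The mean signal of 38 of the 39 genes was above this level. The exception was MTHFD2, a mitochondrial folate enzyme, for which both probe sets were at or below the background level on all 6 arrays, so that its level was not measured. Of the hepatoma markers AFP, KRT8 and KRT18 were above the background level on all 6 arrays, while the other 7 of the 10 measured, ALB among them, were not. By mean signal, as counted for the 39 genes, 6 of the 10 markers were above this level. The number of arrays limits the precision, and the median standard error (SE) of a log2 difference between conditions was 0.18 above the background level.

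**Figure D1:**
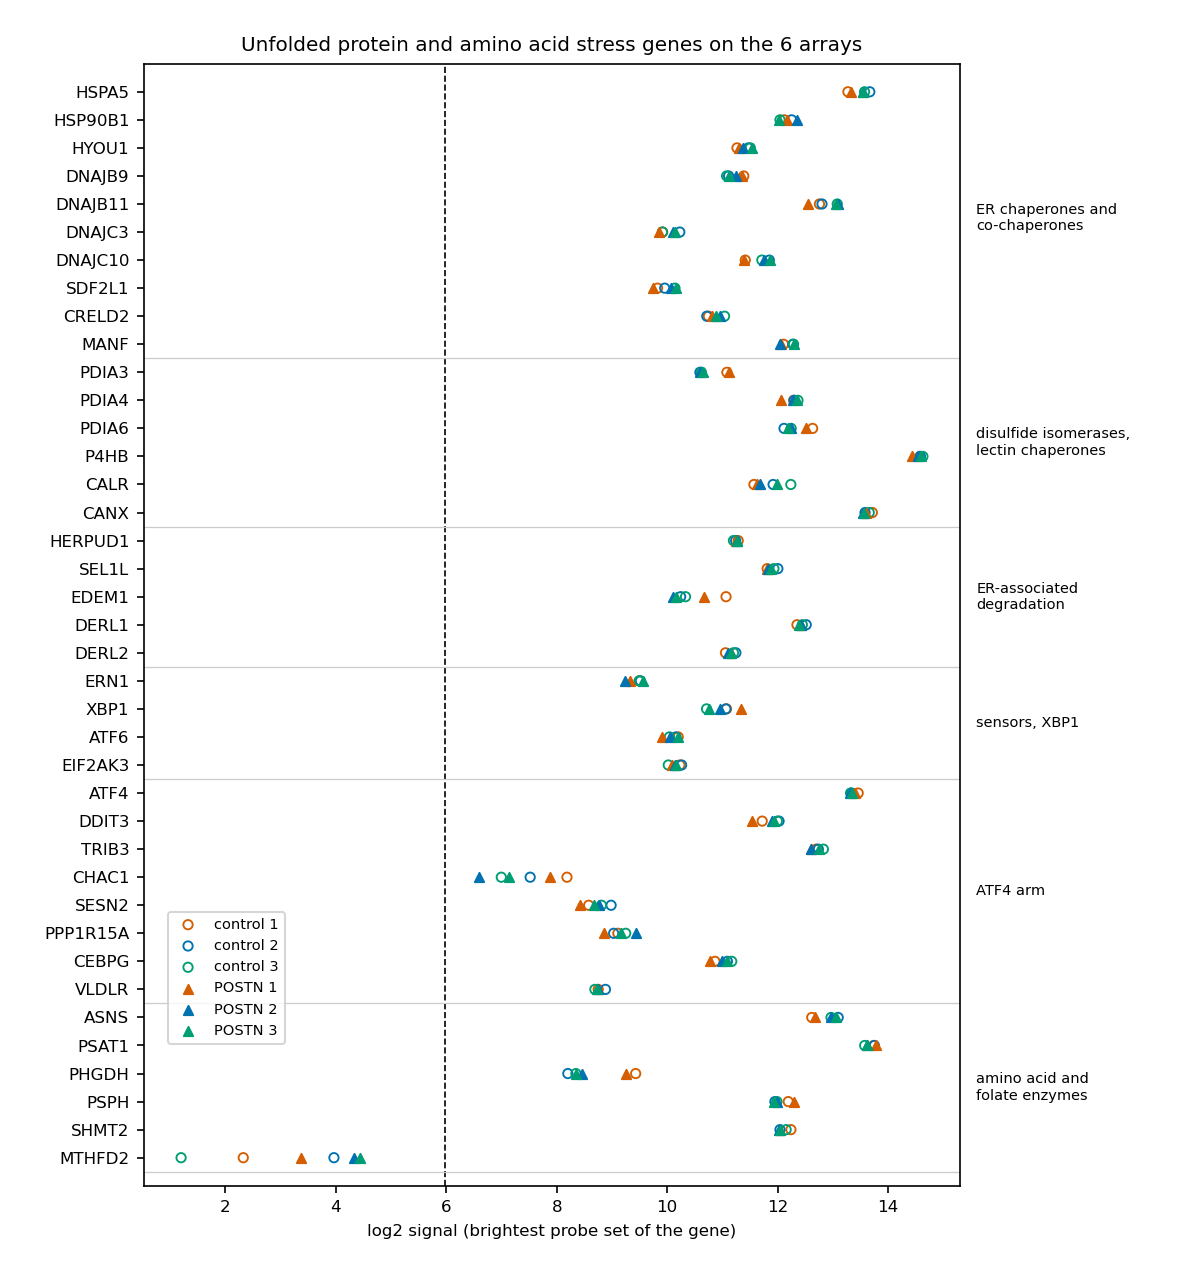
Log2 signal (x axis) of the brightest probe set of the 39 genes on each array, grouped by role, with open circles for control, filled triangles for POSTN, and orange, blue and green for replicate numbers 1, 2 and 3. The dashed line marks the background level (5.98), below which only MTHFD2 lies on all 6 arrays. Signals of different probe sets are not comparable with each other.

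Members of the response carry known elements near their starts, and these sequences are shown for the genes whose values recur in the results. RefSeq promoter windows (GRCh38.p14), from 250 bases before to 50 bases after a transcript start, were held for 36 of the 40 genes in 48 windows. No entry was held for DERL1, PDIA3, PSPH and SHMT2. Both strands were searched for the ER stress response element ERSE (CCAAT, 9 bases of any kind, CCACG), for ERSE-II (ATTGG, 1 base of any kind, CCACG), for the core of the unfolded protein response element UPRE (TGACGTGG) and for an amino acid response element (TGATGNAA). ERSE was found in 27 of 35116 windows (0.0769%), and 9 of these 27 belonged to 7 of the genes, namely CALR, CANX, CRELD2, HSP90B1, HSPA5, PDIA6 and XBP1. HSP90B1, an ER chaperone of the HSP90 family, held 2 ERSE sites. The count of 9 is of windows and not of sites. In the sites below the fixed letters of ERSE are in capitals, and each sequence is written 5′ to 3′ on the strand that carries the element, with all printed bases before the start.
HSPA5 chr9:125241386-125241414, minus strand: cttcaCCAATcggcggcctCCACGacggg
PDIA6 chr2:10812848-10812876, minus strand: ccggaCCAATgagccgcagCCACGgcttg
XBP1 chr22:28800598-28800626, minus strand: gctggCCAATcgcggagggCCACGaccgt
CALR chr19:12938379-12938407, minus strand: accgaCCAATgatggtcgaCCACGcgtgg
The element lay 66 to 48 bases before the start of HSPA5 and 86 to 68 bases before that of PDIA6, in both on the strand of the gene. In CALR it lay 225 to 207 bases before the start, on the opposite strand.

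ERSE-II, in which the CCAAT box is inverted, was found in 19 of all windows (0.0541%) and in 3 of the genes, HERPUD1, HYOU1 and SDF2L1. The UPRE core was found in 256 windows (0.729%) and in 2 of the genes, DNAJC10 and HYOU1, where it overlapped 1 of the 2 ERSE-II sites. The amino acid response element, the most frequent match of the 4, was found in 1270 windows (3.62%) and in 4 of the genes, ASNS, CEBPG, CHAC1 and HERPUD1. In all, 14 of the genes held at least 1 of the 4 elements. The sites of genes described later are given with their fixed letters in capitals.
DNAJC10, UPRE core, chr2:182716121-182716150, minus strand: taggtttaggtTGACGTGGcggtgtgcgcg
ASNS, amino acid response element, chr7:97872458-97872487, minus strand: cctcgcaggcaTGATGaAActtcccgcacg
CHAC1, amino acid response element, chr15:40953251-40953280, minus strand: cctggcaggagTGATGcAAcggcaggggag
SDF2L1, ERSE-II, chr22:21642105-21642133, minus strand: agggttttgATTGGtCCACGcttccgagg
A match describes the letters of the window and is not evidence that a factor binds there in these cells.

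**Figure D2:**
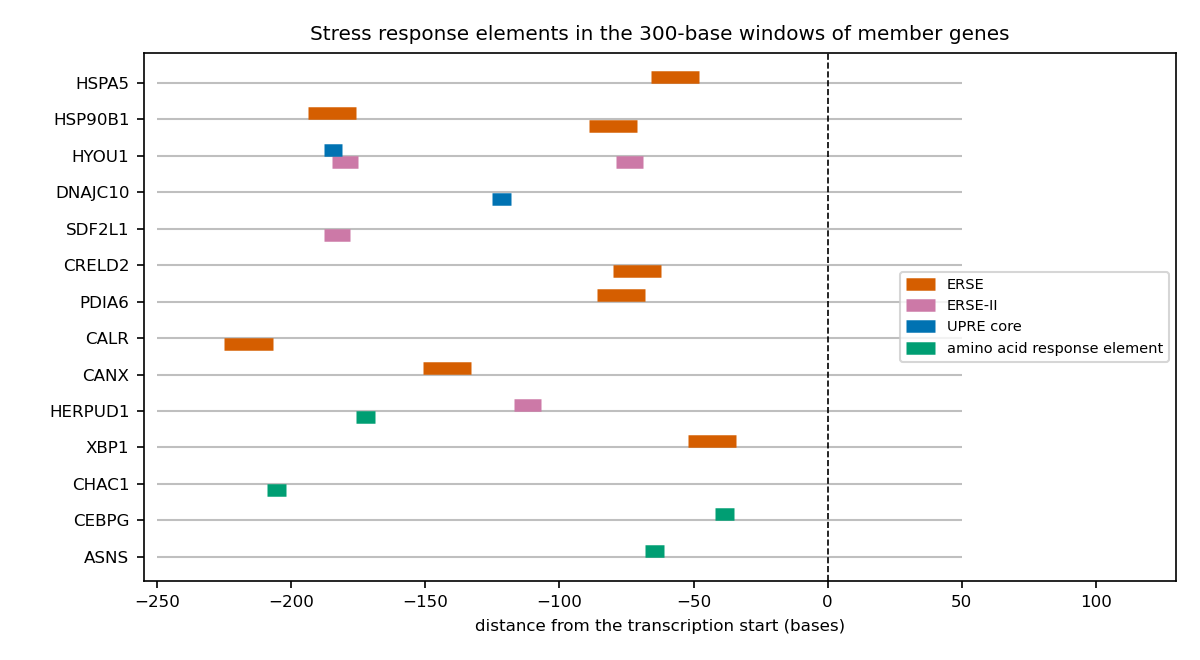
Position of the 4 elements (x axis, bases from the transcript start, dashed line at 0) in the windows of the 14 genes that hold any. Boxes above a line lie on the strand of the gene and boxes below it on the opposite strand, and the colours mark the element; 7 genes hold ERSE, 3 ERSE-II, 2 the UPRE core and 4 the amino acid response element.

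The first comparison asked whether POSTN changed the expression of these genes in residual cells. No change of any of the 39 genes passed the test. In limma 0 of the 39 had an adjusted p under 0.05 (0% of all 19775 genes did), 0 had an unadjusted p under 0.05 (2.48% of all genes), and 0 met the methods' thresholds of such a p together with a fold change over 2 or under 0.5 (2.07% of all genes). The methods' t-test gave 0 genes at an unadjusted p under 0.05 (3.1% of all genes), and in 0 of the 39 genes were the conditions without overlap (7.13% of all genes, 3.49% with POSTN lower). These shares were lower without dim genes. Of 11550 genes above the background level, 100 had an unadjusted p under 0.05 in limma and 19 met the methods' thresholds. The methods' t-test gave 230 of them, and in 575 the conditions were without overlap. Among the 38 genes above the background level, the log2 differences, POSTN minus control, ran from -0.37 to 0.064. Their 95% confidence intervals lay within a 1.5-fold change in either direction for 35 of the 38, the exceptions being EDEM1, CHAC1 and PHGDH, and within a 2-fold change for 37. The interval that left this range was that of CHAC1, from -1.22 to 0.48. No replicate block entered these intervals, and with the block 37 of the 38 lay within a 1.5-fold change, CHAC1 being the exception, and 38 within a 2-fold change.

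The best known readouts of the pathway were close to equal in both conditions. HSPA5 (BiP), the main ER chaperone, had log2 signals of 13.27, 13.67 and 13.57 on control arrays 1 to 3 and 13.33, 13.54 and 13.54 on the POSTN arrays. The conditions overlapped, and the difference was -0.032 (SE 0.11). XBP1, the target of IRE1, had log2 signals of 11.07, 11.06 and 10.71 in control cells and 11.34, 10.95 and 10.75 with POSTN. Its values overlapped too, with a difference of 0.064 (SE 0.16). ATF4 had log2 signals of 13.46, 13.34 and 13.32 in control cells and 13.39, 13.32 and 13.34 with POSTN, a difference of -0.020 (SE 0.078). No ATF4 array stood apart by condition. ASNS, asparagine synthetase and a target of ATF4, had log2 signals of 12.62, 13.09 and 12.96 in control cells and 12.68, 12.96 and 13.06 with POSTN. The lowest value of each condition was that of replicate 1, and the difference between conditions was 0.0077 (SE 0.14).

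The 6 genes with the largest differences above the background level were all lower on average with POSTN, and none passed the test (limma, adjusted p = 1.0 for each). CHAC1, which degrades glutathione and is induced by ATF4, had log2 signals of 8.19, 7.52 and 7.0 in control cells and 7.87, 6.60 and 7.13 with POSTN. Its replicates spread over more than 1 log2 unit within each condition, and the difference was -0.37 (SE 0.38). EDEM1, a lectin that sends misfolded glycoproteins to degradation, had log2 signals of 11.06, 10.24 and 10.33 in control cells and 10.67, 10.11 and 10.17 with POSTN. It was lower with POSTN within all 3 replicate numbers, although the conditions overlapped, and the difference was -0.23 (SE 0.22). With the replicate number as a block EDEM1 was the only one of the 39 brightest probe sets at an unadjusted p under 0.05 in limma (4.76% of all genes). It did not pass the adjusted threshold (adjusted p = 0.97). Further probe sets of ATF6, P4HB and CANX had such an unadjusted p too, those of CANX in opposite directions.

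SESN2, a stress-induced inhibitor of growth signalling, had log2 signals of 8.58, 8.98 and 8.81 in control cells and 8.43, 8.76 and 8.67 with POSTN. Every POSTN array was below the control array of its number, but the conditions overlapped, with a difference of -0.17 (SE 0.17). A SESN2 probe set of about the same brightness, 223196_s_at, went the other way (0.21, SE 0.21) and was higher with POSTN in all 3 numbers. CALR, the lectin chaperone calreticulin, had log2 signals of 11.57, 11.92 and 12.24 in control cells and 11.63, 11.69 and 11.99 with POSTN. All POSTN values lay within the range of the control values, and the difference was -0.14 (SE 0.16). DDIT3 (CHOP), the pro-apoptotic factor of the PERK arm, had log2 signals of 11.72, 12.02 and 11.99 in control cells and 11.53, 11.90 and 11.93 with POSTN. Its POSTN arrays were the lower of each number and overlapped the control arrays, with a difference of -0.13 (SE 0.13). ERN1, the sensor IRE1, had log2 signals of 9.50, 9.52 and 9.49 in control cells and 9.33, 9.24 and 9.56 with POSTN. POSTN replicate 3 was the highest of its 6 values, and the difference was -0.12 (SE 0.13). On 235745_at, a dimmer probe set of ERN1, POSTN was higher in all 3 numbers (0.18, SE 0.17).

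By role, the differences were small in each group. The 10 chaperones and co-chaperones had a median difference of 0.016, with 7 higher and 3 lower on average. Of the 6 disulfide isomerases and lectin chaperones 5 were lower, with a median of -0.080. The 5 measured genes of ER-associated degradation had a median of -0.032, the sensors with XBP1 a median of -0.061, the 8 genes of the ATF4 arm a median of -0.10 with 7 of 8 lower, and the 6 amino acid and folate enzymes a median of 0.017. Over all 39 genes the median was -0.027, with 15 higher and 24 lower on average, beside a median of 0.00015 over all genes and of -0.0078 over the genes above the background level. Within a replicate number, 26 of the 38 genes above the background level were lower with POSTN on the arrays numbered 1 (median -0.068), 27 on those numbered 2 (median -0.10) and 20 on those numbered 3 (median -0.016). Of all 11550 genes above the background level, 6365, 5879 and 5923 were lower in numbers 1, 2 and 3, with medians of -0.024, -0.0041 and -0.0055. In 10 genes, PDIA4, P4HB, CANX, SEL1L, EDEM1, DDIT3, TRIB3, SESN2, CEBPG and SHMT2, POSTN was lower in all 3 numbers, and in 2, PDIA3 and the unmeasured MTHFD2, it was higher in all 3. Of those 10 genes 8 had further probe sets above the background level, and on 1 such probe set each of P4HB (0.25 on 1564494_s_at), CANX (0.14 on 208853_s_at) and SESN2 POSTN was higher in all 3 numbers. These are signs of differences that did not pass the test, and no test was made of the group medians. How often all genes kept one sign over the 3 numbers was not counted.

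**Figure D3:**
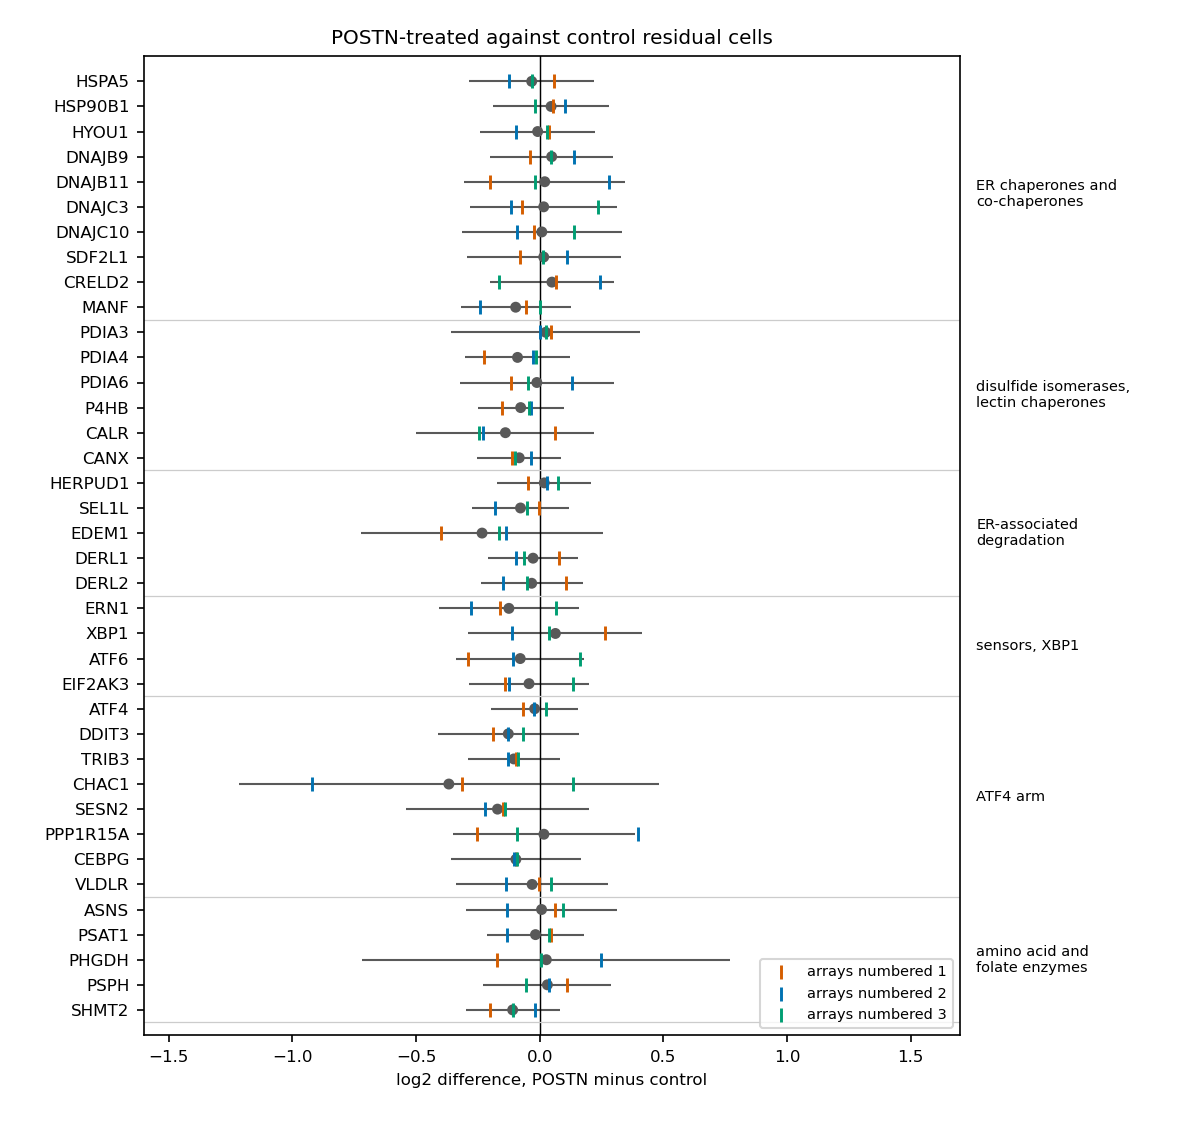
Log2 difference, POSTN minus control (x axis), of the 38 genes above the background level, with the mean difference as a point, its 95% confidence interval from limma as a line, and the difference within each replicate number as a tick. All 38 intervals include 0, and that of CHAC1 is the widest.

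The sign of such small differences often depended on the probe set. Of 42 further probe sets above the background level, from 23 of the genes, 24 differed in sign from the brightest probe set of their gene. ATF6 was among these genes. Its brightest probe set, 226941_at, differed by -0.079 between conditions. Probe set 203952_at of ATF6 had log2 signals of 9.15, 8.40 and 8.68 in control cells and 9.54, 9.80 and 8.98 with POSTN. The POSTN array was higher in each of the 3 numbers, but POSTN replicate 3 lay below control replicate 1, and the difference was 0.70 (SE 0.24, adjusted p = 1.0 in limma). Its unadjusted p in limma was 0.015, and 0.0031 with the replicate block, where its adjusted p was 0.97. The other ATF6 probe sets above the background level differed by 0.0092 (231927_at) and 0.34 (217550_at). Probe set 203952_at was singled out after its values had been seen.

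The second comparison followed the replicate numbers. The arrays numbered 1 (control replicate 1 and POSTN replicate 1) were set against those numbered 2 and 3, with the condition in the fit. This contrast was chosen with earlier results of these data known, so that a difference between number 1 and the rest is not an independent finding. The labels do not say what the number stands for, and each number holds only 1 array per condition. Of the 39 genes 11 passed an adjusted p under 0.05 in limma (28.2%), 6 of them higher and 5 lower on the arrays numbered 1. Over all 19775 genes 8.95% passed, 4.64% higher and 4.31% lower. Brighter genes passed more often: of all genes with a mean log2 signal above 10, 20.7% passed, beside 9 of the 31 genes of the response at that level (29.0%). The direction was mixed, with 14 of the 39 genes higher and 25 lower on average. Their median difference was -0.064, number 1 minus numbers 2 and 3. Over all genes the median was -0.0018, with 9846 higher and 9929 lower. Over those above the background level it was 0.010, with 5921 higher and 5629 lower.

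The counts changed when an array numbered 1 was left out. Without control replicate 1 they fell to 0 higher and 0 lower, without POSTN replicate 1 to 2 and 0, and without POSTN replicate 3 to 4 and 3. Without an array numbered 1 that number is a single array, assumed to vary like the others. In all 11 called genes the arrays numbered 1 did not overlap the others, so their direction could not change in either of these fits. Their differences were 0.525 to 1.48 times the full ones, such as 0.53 and 0.78 for EDEM1 and 0.86 and 1.15 for PHGDH. The full difference is the mean of those from both fits, so ratios on either side of 1 follow from the design. In a fit without a trend of the prior variance with the signal, 0 of the 39 genes passed. The share of all genes called was not counted in that fit or with an array left out. These changed counts may therefore not be particular to the 39 genes. The F test over the 3 numbers, which does not choose a number, called 9 of the genes (11.3% of all genes above the background level), and the arrays numbered 2 and 3 differed from each other in 0 of the 39 genes (0% of all genes) and in 3 at an unadjusted p under 0.05 (6.15% of all genes).

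Chaperones and co-chaperones were the group with most genes on the lower side, 9 of 10, of which 3 fell. HSPA5, whose values are given with the comparison of conditions, lay at 13.27 and 13.33 on the arrays numbered 1 and at 13.54 to 13.67 on the others. The numbers did not overlap, and HSPA5 was lower by a log2 difference of -0.28 (SE 0.058, adjusted p = 0.016 in limma). DNAJB11, a co-chaperone of BiP, had log2 signals of 12.76 and 12.55 on control and POSTN arrays numbered 1, against 12.80, 13.08, 13.08 and 13.06 on the others. Control replicate 2 lay close to control replicate 1, and the difference was -0.35 (SE 0.090, adjusted p = 0.045 in limma). DNAJC10, an ER disulfide reductase with a J domain, had log2 signals of 11.41 and 11.39 on the arrays numbered 1 and between 11.71 and 11.85 on the others. The gap was wider than the spread within either set, and the difference was -0.39 (SE 0.069, adjusted p = 0.0068 in limma). Among the others of this group SDF2L1 differed by -0.29 (adjusted p = 0.12 in limma) and HSP90B1 by -0.019. HYOU1, the nucleotide exchange factor of BiP, the co-chaperone DNAJC3 and the secreted factors CRELD2 and MANF differed by -0.22 to -0.12, and DNAJB9, a co-chaperone that restrains IRE1, was the gene of this group on the higher side (0.23, adjusted p = 0.11 in limma).

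The disulfide isomerases and lectin chaperones went apart from each other, with 2 of 6 higher and none lower at this threshold. PDIA3 (ERp57), the isomerase that works with calreticulin and calnexin, had log2 signals of 11.08 and 11.13 on the arrays numbered 1 and between 10.59 and 10.65 on the others. The numbers were well apart, with a difference of 0.49 (SE 0.072, adjusted p = 0.0025 in limma). Its dimmer probe sets gave 0.011 (227033_at) and 0.21 (229453_at), neither past the threshold. PDIA6, an isomerase that also attenuates the sensors, had log2 signals of 12.63 and 12.52 on the arrays numbered 1 and between 12.11 and 12.24 on the others. It too showed no overlap, with a difference of 0.38 (SE 0.066, adjusted p = 0.0069 in limma), and PDIA6 was called in the same direction on 2 further probe sets (0.38 on 208639_x_at and 0.48 on 216640_s_at). The isomerases PDIA4 (-0.15) and P4HB (-0.089), and CANX, the membrane lectin calnexin (0.072), did not pass the test. CALR differed by -0.36 (adjusted p = 0.10 in limma) and was called by the F test (adjusted p = 0.018).

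Of ER-associated degradation 1 of 5 measured genes passed. EDEM1 lay at 11.06 and 10.67 on the arrays numbered 1 and at 10.11 to 10.33 on the others, a difference of 0.65 (SE 0.087, adjusted p = 0.0013 in limma). Both arrays numbered 1 were above every other, and control replicate 1 was the highest. HERPUD1, SEL1L, DERL1 and DERL2, which retain or move substrates at the ER membrane, differed by -0.10 to 0.018. None of the 3 sensors nor XBP1 passed. ERN1, ATF6 and EIF2AK3 differed by -0.059 to 0.015, while XBP1 differed by 0.34 (SE 0.11, adjusted p = 0.12 in limma) with both arrays numbered 1 at or above the others.

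In the ATF4 arm 2 of 8 genes passed, in opposite directions. ATF4 itself differed by 0.094 (adjusted p = 0.42 in limma). DDIT3 lay at 11.72 and 11.53 on the arrays numbered 1 and at 11.90 to 12.02 on the others, without overlap. It fell by 0.34 on the log2 scale (SE 0.062, adjusted p = 0.0090 in limma). CHAC1 lay at 8.19 and 7.87 on the arrays numbered 1 and at 6.60 to 7.52 on the others, and its difference of 0.97 (SE 0.25) was just past the threshold (adjusted p = 0.049 in limma). CEBPG, a partner of ATF4, differed by -0.26 (adjusted p = 0.061 in limma) on its brightest probe set and by 0.082 (adjusted p = 0.64) on 225527_at, which is about as bright. SESN2 differed by -0.30 (adjusted p = 0.25 in limma) on its brightest probe set and by -0.53 (adjusted p = 0.041) on 223196_s_at. TRIB3, a pseudokinase that restrains ATF4 and AKT, PPP1R15A (GADD34), which recruits the phosphatase of eIF2, and the lipoprotein receptor VLDLR differed by -0.23 to -0.015.

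Amino acid enzymes held the largest called difference among the 39 genes. PHGDH, which commits glycolytic carbon to serine, had log2 signals of 9.43 and 9.26 on control and POSTN arrays numbered 1, against 8.20, 8.35, 8.45 and 8.35 on the others. The arrays numbered 1 stood apart in both conditions, with a difference of 1.01 (SE 0.14, adjusted p = 0.0014 in limma), a 2.01-fold higher signal. PSPH, the last enzyme of serine synthesis, had log2 signals of 12.19 and 12.30 on the arrays numbered 1 and between 11.93 and 11.99 on the others. These did not overlap, and the difference was 0.28 (SE 0.062, adjusted p = 0.023 in limma). PSAT1, the enzyme between PHGDH and PSPH in the pathway, differed by 0.12 (adjusted p = 0.35 in limma) on its brightest probe set and by 0.31 (adjusted p = 0.024) on 220892_s_at. ASNS went the other way, at 12.62 and 12.68 on the arrays numbered 1 and 12.96 to 13.09 on the others, a difference of -0.37 (SE 0.063, adjusted p = 0.0050 in limma). SHMT2, the mitochondrial enzyme that takes up serine carbon, differed by 0.074 on its brightest probe set. The only other ASNS probe set with a single symbol, 241082_at, lay within the background range and gave 0.71, without passing the test.

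**Figure D4:**
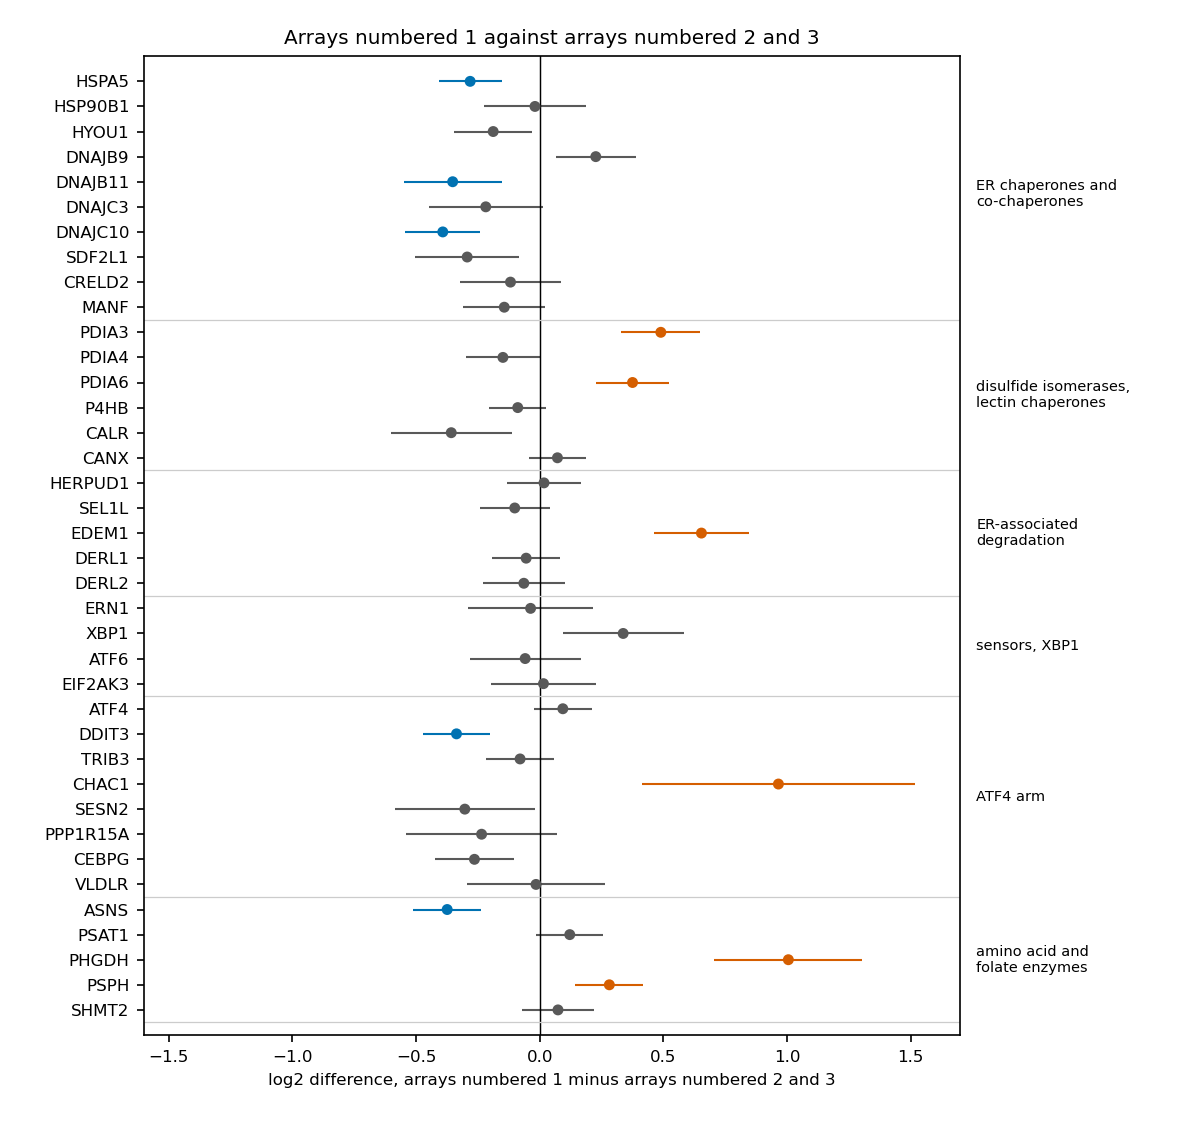
Log2 difference, arrays numbered 1 minus arrays numbered 2 and 3 (x axis), of the 38 genes above the background level with the 95% confidence interval from limma. Orange marks the 6 genes that were higher and blue the 5 that were lower at an adjusted p under 0.05, and grey the others.

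The called genes differed in how far their call depended on the choices made. Of 17 alternative settings and left-out arrays, EDEM1 and PHGDH kept an adjusted p under 0.05 in the same direction in 15, DDIT3 in 14, ASNS, DNAJC10, PDIA3 and PDIA6 in 13, HSPA5 in 12, PSPH in 8, DNAJB11 in 7 and CHAC1 in 5. Of the 11 genes, 5 had further probe sets above the background level. Of these 11 probe sets 9 went in the direction of the brightest, and 3 were also called in that direction. DNAJC10 on 229588_at (0.12) and PSPH on 244819_x_at (-0.012) went the other way. PDIA6 was not called on 208638_at (0.23, adjusted p = 0.11 in limma). On further probe sets CANX (0.29 on 208852_s_at, adjusted p = 0.012 in limma) and SHMT2 (0.28 on 214437_s_at, adjusted p = 0.046) were higher on the arrays numbered 1, whereas their brightest probe sets gave 0.072 and 0.074.

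The values of the genes with an element were as follows. Of the 7 genes with ERSE 3 were higher and 4 lower on average on the arrays numbered 1, with a median of -0.019, and the 2 that were called, HSPA5 and PDIA6, went opposite ways. Of the 4 genes with an amino acid response element, ASNS was lower and CHAC1 higher on these arrays, while CEBPG (-0.26) and HERPUD1 (0.018) were not called. DNAJC10 (-0.39, called) and HYOU1 (-0.19, not called) held the UPRE core. The genes with ERSE-II, HYOU1 (-0.19), SDF2L1 (-0.29) and HERPUD1 (0.018), were not called. Between conditions the genes with ERSE differed by -0.14 to 0.064.

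Further genes of the same pathways were described from 4 lists of 113 measured genes. POSTN changed 0 of them at an adjusted p under 0.05, and 2 had an unadjusted p under 0.05, the glycoprotein folding sensor UGGT1 (-0.23) and the oxidoreductin ERO1B (-1.67). ERO1B met the methods' thresholds, but the mean log2 signal of its probe set, 5.58, was below the background level. On the arrays numbered 1, 24 of the 113 were called (21.2%), 6 higher and 18 lower, beside 15.1% of all genes above the background level and 20.7% of those with a mean log2 signal above 10. This count was 8 without control replicate 1, 10 without POSTN replicate 1 and 14 without POSTN replicate 3. Other genes of the ATF4 arm and of amino acid supply had 3 higher and 6 lower of 36, those of the ER 2 higher and 5 lower of 51, and the cytosolic and mitochondrial heat shock proteins 1 higher (DNAJB1, 0.31) and 2 lower (HSP90AB1, -0.30, and HSP90AA1, -0.27) of 11. Of 15 aminoacyl-tRNA synthetases, which charge tRNAs and include targets of ATF4, 5 were called lower and 0 higher. On average 12 of 15 were lower, with a median of -0.22, beside 0.010 over all genes above the background level. For the counts of the 113 genes with an array left out, the share of all genes called was not counted.

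DDIT4, a stress-induced inhibitor of mTORC1 signalling, had log2 signals of 12.48 and 12.30 on the control and POSTN arrays numbered 1, against 10.63, 10.59, 10.53 and 10.53 on the others. It was the called gene with the largest difference on the higher side of these lists, 1.82 (SE 0.068, adjusted p = 2.4e-07 in limma). NUPR1, a stress-induced chromatin protein, was higher by 0.80 and KLHL24, a Kelch-like adaptor, by 1.12. GADD45A, a growth arrest and DNA damage gene, differed by -1.20, the secreted glycoprotein STC2 by -0.90, and SLC7A11, the cystine transporter, by -0.44. GARS1 (-0.52), WARS1 (-0.43) and YARS1 (-0.41) led the synthetases, SPCS3 (-0.54), CREB3L2 (-0.43) and KDELR3 (-0.43) the other ER genes that were lower, and ERP29 (0.47) and MBTPS1 (0.38) were the ER genes that were higher. Among genes known to respond to ATF4, the arrays numbered 1 thus held lower signals of DDIT3, ASNS, STC2 and SLC7A11. They held higher signals of CHAC1, which was just past the threshold, DDIT4 and NUPR1. Of other genes that ATF4 induces, PHGDH (1.01) and PSPH (0.28) were higher, while PSAT1 (0.12) and TRIB3 (-0.079) were not called on their brightest probe sets. This grouping was made after the values had been seen.

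**Figure D5:**
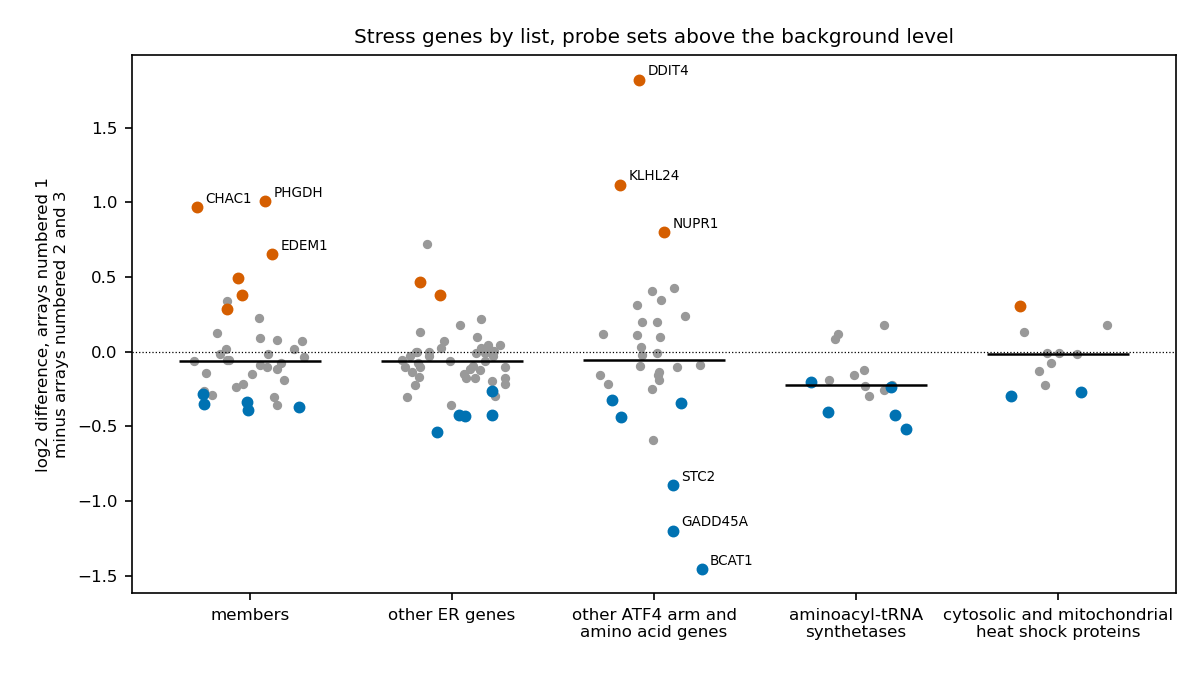
Log2 difference, arrays numbered 1 minus arrays numbered 2 and 3 (y axis), of the genes above the background level in the response itself and in 4 lists of further genes, with a horizontal bar at the median of each list. Orange and blue points passed an adjusted p under 0.05 in limma, higher and lower, and grey points did not. The synthetases have a median of -0.22 and no gene called higher.

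Of the measured markers of cell types, 2 of 10 for hepatoma and 1 of 9 for stellate cells and fibroblasts were called between the same arrays. So were 1 of 5 endothelial and 0 of 4 leukocyte markers, beside 8.95% of all genes and 15.1% of those above the background level. The hepatocyte gene ALB had log2 signals of 7.75 and 7.83 on the arrays numbered 1 and 5.65 to 6.13 on the others (difference 1.85, adjusted p = 0.0073 in limma), and SERPINA1 was also higher (2.92, adjusted p = 0.0056). Over the 10 measured hepatoma markers 4 were higher and 6 lower on average, with a median of -0.028, and these 2 were the ones called. The summed signal of the 10 measured hepatoma markers, as log2, was 15.48 to 15.61 on the arrays numbered 1 and 15.61 to 15.74 on the others. Of 9 stellate cell and fibroblast markers 3, COL1A1, DCN and LUM, were above the background level on all 6 arrays. The summed log2 signal of all 9 was 11.53 to 11.74 on the arrays numbered 1 against 11.78 to 11.91 on the others. On average 4 of the 9 were higher and 5 lower on the arrays numbered 1, with a median of -0.034. DCN was the one called (-1.0, adjusted p = 0.00037 in limma). Of 5 endothelial markers PECAM1 and KDR were above the background level on all 6 arrays. The summed log2 signal of all 5 was 10.47 to 10.71 on the arrays numbered 1 against 9.99 to 10.33 on the others. PECAM1 was the one called (0.51 higher, adjusted p = 0.018 in limma). Of 4 leukocyte markers 0 were above this level on all arrays, and the sum of all 4 was 6.57 to 7.28 against 7.27 to 7.58. The part of these differences in the values of the stress genes was not tested. In bulk samples fewer cells that use a gene and less RNA of it per cell cannot be told apart.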

How the data were processed

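RNA of 6 samples of residual MHCC97H cells was measured on Affymetrix HG-U133 Plus 2.0 arrays. Per the labels and the methods, the authors used MAS 5.0 and the R package affy (versions not given in the sources used here) and deposited log2 signals. The linear signals have a mean of 500 on every array without the highest and lowest 2%. MAS 5.0 subtracts local background and mismatch signal, which makes low log2 values scatter. No column was left unused. Of 54675 probe sets 62 controls were left out. Of the other 54613, 41091 have 1 symbol in the array's annotation, 1801 several and 11721 none.

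The conditions and replicate numbers came from the labels. All 54613 probe sets were fitted with limma 3.58.1 under R 4.3.3 (lmFit, then eBayes with a variance trend), with Benjamini-Hochberg adjustment over all of them, without a filter on dim probe sets. POSTN was compared with control without a block, and number 1 with numbers 2 and 3 with the condition in the fit. The brightest probe set with 1 symbol stood for a gene. Lists were described by counts and medians, without a set test. The scripts were tested on simulated data. The members, the lists and the comparison of numbers were chosen with earlier results of these data known.

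Values on all arrays are given for the 6 members with the largest difference between conditions above the background level, for members called between numbers and for HSPA5, XBP1, ATF4, DDIT3 and ASNS. From each further list up to 3 genes per direction with the lowest p are named, and genes outside this rule were chosen after their values were seen. To check the numbers, deviations from the mean of the condition were correlated between the control and the POSTN array of each number. Numbers 1, 2 and 3 gave 0.529, 0.235 and 0.239 above the background level (0.088, 0.034 and 0.025 for all probe sets). Unlike numbers gave 0.201 (control 2 with POSTN 3) and 0.150 (control 3 with POSTN 2), close to the values of equal numbers 2 and 3, and otherwise values below 0. Deviations within a condition sum to 0, which by itself pulls unlike numbers below 0. Number 1 is thus the one set clearly apart, and these values do not show that numbers 2 and 3 pair the arrays. The replicate block takes the numbers as pairing the arrays, which is not stated in the labels. Promoter windows came from RefSeq (GRCh38.p14). Protein sequences were not used here. The alternatives were quantile normalization, median centring, log2(value + 50), a filter at the background level, leaving out _x_at and _s_at probe sets, no trend, array weights, the replicate block, the mean of a gene's probe sets, the methods' t-test, other contrasts of the numbers, and leaving out each array or both arrays numbered 1.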

Additional observations from a re-analysis of the deposited data

How the results depend on the processing

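In all 18 alternatives to the comparison of POSTN with control, 0 of the genes passed an adjusted p under 0.05, and likewise 0 of the 113 genes of the 4 further lists. With the replicate block this count was 0. It was also 0 with the block among probe sets above the background level, an alternative chosen after seeing the data. At an unadjusted p under 0.05 in limma the block added EDEM1 among the brightest probe sets. The share of all genes at such a p was 4.76% with the block and 2.48% without it. Leaving out 1 array, 0 to 1 members met the methods' thresholds, the 1 being MTHFD2 without control replicate 2 (log2 difference 2.29), whose probe set is within the background range. The median difference was -0.078 with each array centred on its median, -0.0043 with the mean of a gene's probe sets above the background level, and -0.066 to -0.032 with 1 array left out. Between numbers, members called higher were 0 without the trend, 0 for number 2 against number 3, and 0 to 7 with 1 array left out. Those called lower were 3 with each array centred on its median, 0 without the trend, 0 for number 2 against number 3, 0 to 5 with 1 array left out, and at most 7, with the 3 numbers in the fit. The median difference was -0.020 without _x_at and _s_at probe sets, where 32 genes remained, -0.0053 for number 2 against number 3, and -0.090 to -0.036 with 1 array left out. Of the further lists 15 genes were called with each array centred on its median, 15 without _x_at and _s_at probe sets (83 genes tested), 0 without the trend, 0 for number 2 against number 3, 8 to 25 with 1 array left out, and at most 33, with only probe sets above the background level. ASNS was at 0.71 between numbers without _x_at and _s_at probe sets, on a probe set within the background range. The cause of the other changes was not tested. For most alternatives the share of all genes called was not counted, so a changed count may not be particular to these genes. Below the background level the log2 values vary too widely to show a difference.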
